A study of Drosophila melanogaster with 18 samples.

Results

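Cytosolic ribosomal protein genes of Drosophila melanogaster were taken as the genes whose names begin with RpL, RpS or RpLP followed by a number and that do not lie on chromosome 4. The pattern matched 92 genes, and leaving out RpS3A on chromosome 4 gave 91 members among 17972 genes of the Illumina table. The same 91 gene identifiers were found among the 13969 genes of the Nanopore table. By name 54 members belonged to the large subunit, 4 of them genes of the stalk (RpLP), and 37 to the small subunit. They were spread over chromosome arms 2L (19 genes), 2R (21), 3L (14), 3R (23) and X (14).

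Each ribosome holds a small subunit, which reads the mRNA, and a large subunit, which joins the amino acids and passes the growing chain through an exit tunnel. Nearly every ribosomal protein is present as a single copy per ribosome, so cells make these proteins in near-equal amounts, from mRNAs that share a terminal oligopyrimidine tract at their start and are translated under control of the TOR kinase. In Drosophila, loss of 1 copy of many of these genes gives the Minute phenotype of slow development and short bristles.

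RNA came from whole adult flies of 3 genotypes, with 3 libraries per genotype on each of 2 platforms (18 libraries). All flies bore the driver GR23E10-gal4: the driver control had no transgene beside it, the dec2WT genotype added UAS-dec2WT, and the dec2P384R genotype added UAS-dec2P384R. Gal4 is a yeast activator that turns on transgenes placed behind UAS sites. This driver is known for a small set of neurons in and around the dorsal fan-shaped body of the brain, whereas the RNA was that of the whole body. P384R is named by the series title as a familial natural short sleep mutation. Flies were held at 25 °C with 12 h of light and 12 h of dark, taken at zeitgeber time 3 and pooled at about 70 per extraction, and the labels describe the replicates as biological. No sex, age or batch was given, nor whether both platforms read the same RNA. RNA of the transgene was not analysed here, so the genotype labels were not checked against it. The Illumina column used as dec2P384R replicate 2 spells the mutant with its digits exchanged.

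Illumina libraries held 18057117 to 28293197 reads on genes and Nanopore libraries 1922380 to 4659601 estimated counts. Markers of gut summed to 9836 to 15792 FPKM, markers of neurons to 3874 to 5170 FPKM, of muscle to 1733 to 2789 FPKM, of testis to 4119 to 6023 FPKM and of the accessory gland to 2676 to 4683 FPKM. FPKM counts sequenced fragments relative to both the length of the gene and the depth of the library. The 3 yolk protein genes of the female fat body summed to 5.55 to 11.3 FPKM. The 27 ovary markers summed to 139 to 191 FPKM. Of these 27, only 11 reached 0.5 FPKM in at least 3 Illumina libraries, and 9 passed the expression filter on Nanopore. The eggshell genes Vm26Aa and Cp38 were at 0 in all 9 Illumina libraries. Of 13 gut markers, 3 were lower in dec2P384R and 5 lower in dec2WT than in the driver control on Illumina (limma, adjusted p under 0.05). Of all genes 2.8 and 2.61% were called there in either direction. On Nanopore 4 and 5 gut markers were called lower (edgeR), against 0.474 and 0.799% of all genes. For dec2P384R on Illumina 1 testis marker was higher, and 1 testis and 1 accessory gland marker were lower. For dec2WT 2 accessory gland markers and 1 ovary marker were lower there, and none of muscle or neurons was called. The part of any of these markers in the results on ribosomal protein genes was not tested.

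The 91 members fell into 3 classes with different levels. The main genes, 79 in number (48 of the large and 31 of the small subunit), had mean levels over the 9 Illumina libraries of 196 to 3914 FPKM, with a median of 1065 FPKM. The median over all 13418 genes that passed the filter on low values was 9.02 FPKM. Of the 100 genes of highest mean FPKM 46 were members, and of the 200 highest 72 were. The 10th and 90th percentiles of the main genes were 608 and 1677 FPKM, a ratio of 2.76. A further 9 members, second copies of a main gene taken as of restricted expression, several of them known from the germ line, had means of only 6.66 to 42.8 FPKM. The last 3 members carry names ending in "-like", and their yeast relatives are ribosome assembly factors and not parts of the finished ribosome: RpL24-like at 220 ± 43.4 FPKM (SD, n = 9), RpLP0-like at 20.2 ± 2.03 FPKM, and RpL7-like at 0 reads in all 9 libraries. The name pattern therefore took in genes outside the working ribosome, and it missed sta, which encodes the small-subunit protein RpSA and measured 858 to 1224 FPKM.

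**Figure D1:**
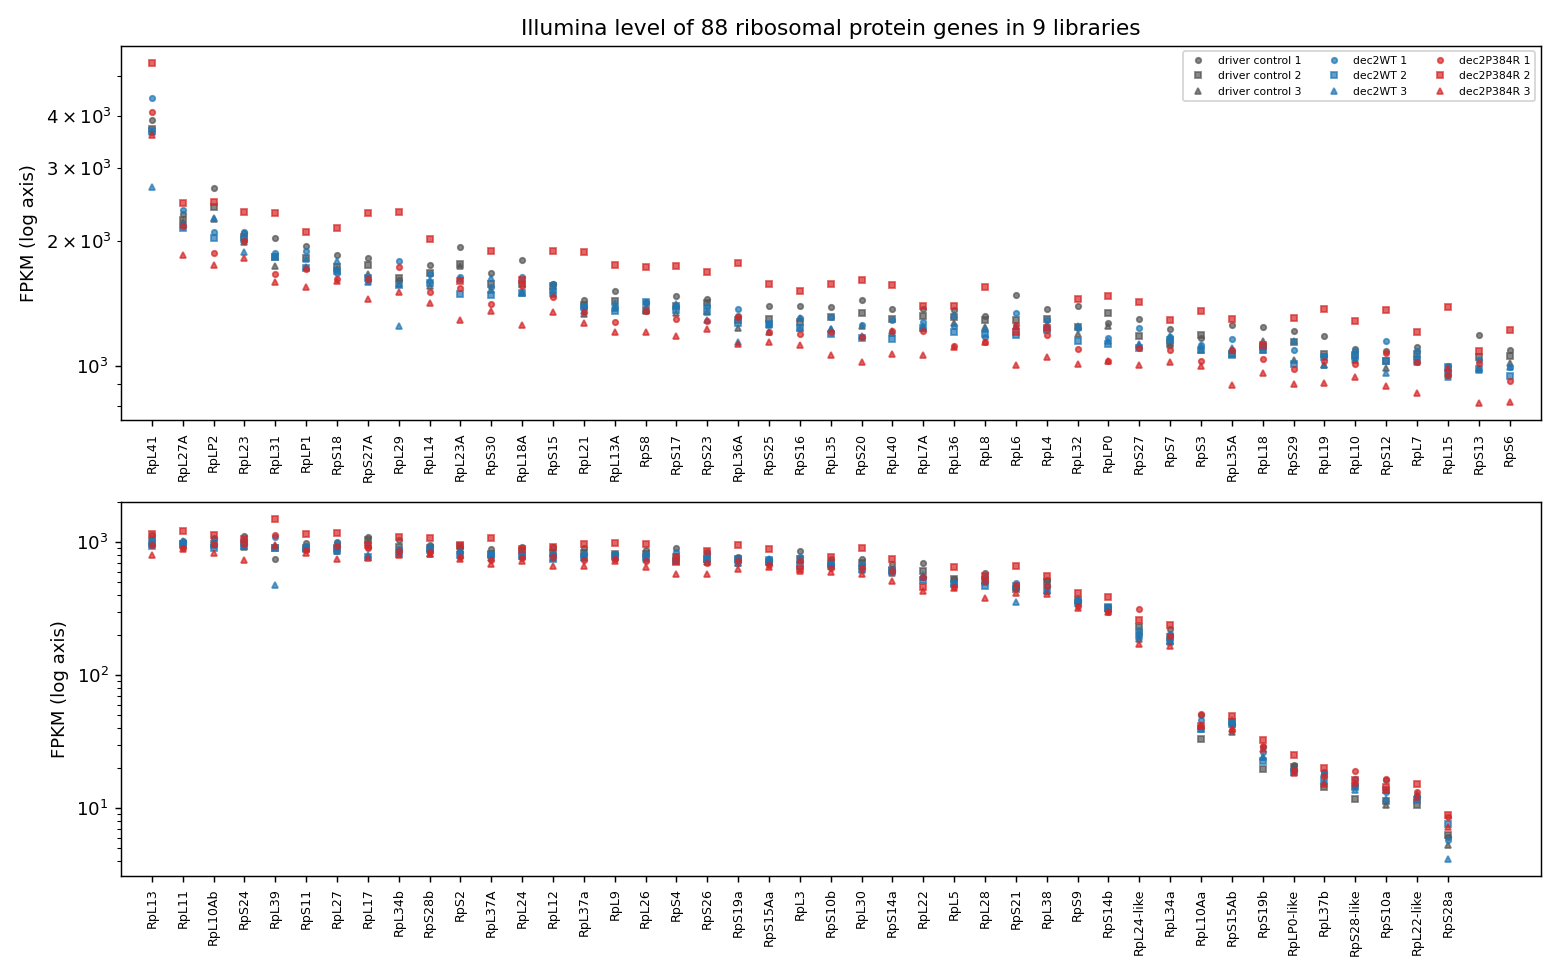
Illumina FPKM (log axis) of 88 of the 90 members with reads, ordered by their mean over 9 libraries and split over both panels, with 1 point per library, colour for genotype and symbol for replicate number. RpL41 stands at the top with a mean of 3914 FPKM, the main genes end with RpL34a at 196 FPKM, and the second copies of restricted expression lie at 6.66 to 42.8 FPKM.

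The most abundant member on both platforms was RpL41, a very short, basic protein of the large subunit encoded on chromosome arm 2R, 24903416 to 24903935, minus strand. RpL41 measured 3926, 3735 and 3659 FPKM in the driver control, 4432, 3689 and 2696 FPKM in dec2WT, and 4096, 5384 and 3607 FPKM in dec2P384R. The 3 genotypes overlapped, and the spread within dec2WT and dec2P384R (SD 871 and 918 FPKM) exceeded that within the driver control (SD 138 FPKM). Next on Illumina came RpL27A at 2221 ± 173 FPKM (SD, n = 9), the stalk protein RpLP2 at 2207 ± 300 FPKM, RpL23 at 2034 FPKM and RpL31 at 1858 FPKM. RpL27A and RpLP2 did not differ beyond their spread over libraries. On Nanopore, counts scaled to a common library size with TMM factors (CPM) and divided by gene length in kilobases were highest for RpL41 at 9505, RpL39 at 4528, RpLP2 at 2949, RpL27A at 2908 and RpL23 at 2613. The lowest main genes on Illumina were RpL34a, RpS14b (321 FPKM) and RpS9 (361 FPKM). Per kilobase on Nanopore they were RpL34a, RpL5 and RpS14b, at 265, 400 and 409 CPM. Before division by length RpL39 (288 nt) stood at 1304 CPM and RpL5 (3835 nt) at 1535 CPM on Nanopore. The median of the main genes was 1240 CPM, so the places of RpL39 and RpL5 in that order came largely from the division by length. Over the 79 main genes the levels per length on both platforms had a Spearman correlation of 0.76. This describes genes within 1 set of flies, and the gene length enters both values.

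RpL34a and RpS14b are each the weaker of a pair of near-identical copies that are both widely expressed. RpS14a and RpS14b, copies of a protein of the small-subunit platform, lie in tandem on the X chromosome at 7933742 to 7934677 and 7934898 to 7935792. RpS14b made up 32.2 to 36.7% of the summed FPKM of the pair on Illumina and 15.2 to 20.7% of the summed counts on Nanopore. RpL34a made up 17.0 to 18.8% of its pair on Illumina and 13.0 to 17.1% on Nanopore. Reads of such copies can be assigned to either gene, so the split within a pair is uncertain, and the Illumina share is per length whereas the Nanopore share is of counts. The shares of the 3 genotypes overlapped for RpS14b on both platforms and for RpL34a on Illumina. On Nanopore the RpL34a share was 16.4, 16.9 and 17.1% in dec2P384R, above the controls at 13.0, 16.1 and 16.0% and overlapping dec2WT.

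The second copies of restricted expression made up small shares of their families. RpS15Ab, a copy of the small-subunit protein RpS15Aa, had the highest share at 5.49% of the family FPKM (SD 0.28, n = 9 libraries), followed by RpL10Aa at 4.17%, RpS19b at 3.39%, RpL22-like at 2.27%, RpL37b at 2.08%, RpS10a at 1.93%, RpS28-like at 1.66% and RpS28a at 0.72%. On Nanopore these genes made up 0.59% (RpS28a) to 4.40% (RpL10Aa) of their families. In level, RpL22-like, known in Drosophila from the testis, stood at 12.4 ± 1.29 FPKM (SD, n = 9).

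The share of RpL22-like in its family on Illumina was 2.37, 3.18 and 2.74% in dec2P384R, beside 1.73, 1.68 and 2.29% in the controls and 2.18, 2.17 and 2.07% in dec2WT. All 3 dec2P384R libraries lay above all 6 others. On Nanopore its shares of 1.34 to 2.47% overlapped between genotypes. These shares were chosen for description after their values were seen and carry no test. RpL22-like itself did not pass the test in any comparison on either platform.

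**Figure D2:**
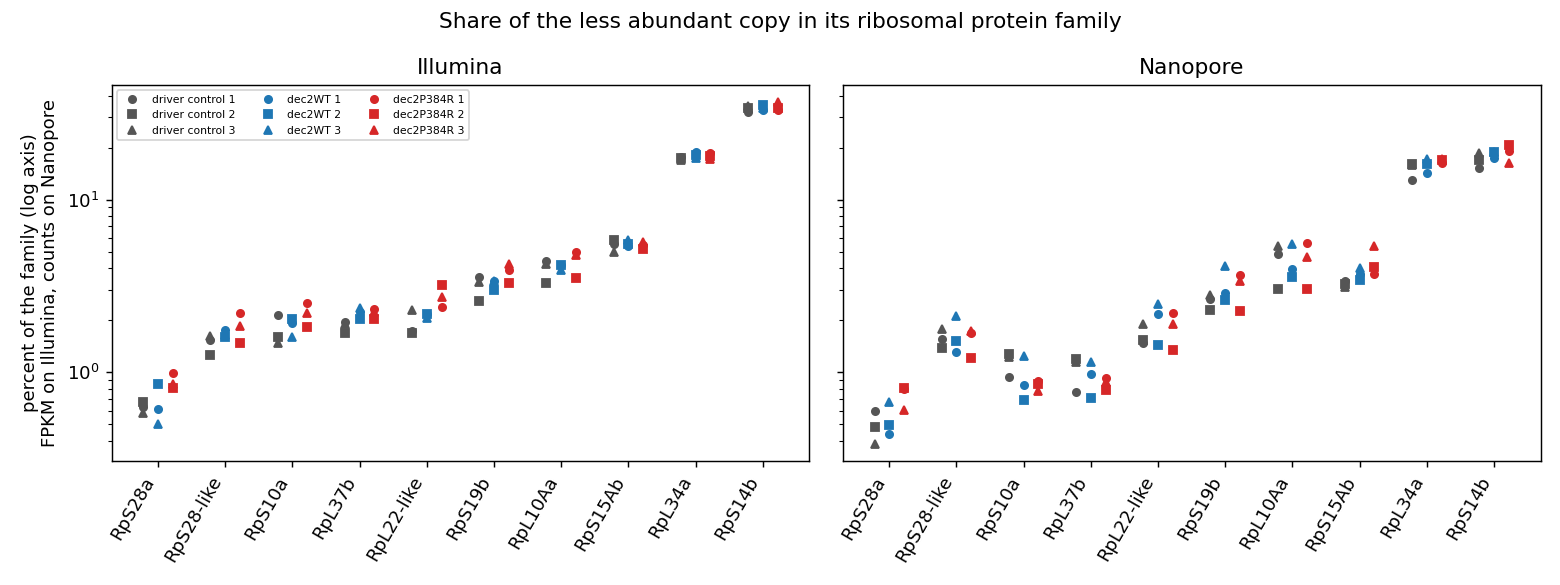
Percent of its family (log axis) that each less abundant copy shown made up, by library, from FPKM on Illumina and from counts on Nanopore. Shares run from 0.72% for RpS28a to 34.1% for RpS14b on Illumina, and for RpL22-like on Illumina the 3 dec2P384R libraries lie above all 6 others.

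For the effect of the transgenes, 90 members were tested on Illumina and 91 on Nanopore. None passed an adjusted p of 0.05 in any of the 6 comparisons. In bulk RNA of whole flies, fewer cells of a type and less RNA per cell cannot be told apart, and this holds for every value here. For dec2P384R against the driver control on Illumina, 0 of 90 members were called by limma, against 2.8% of all genes; 3 members had an unadjusted p under 0.05, against 14.1% of all genes. EdgeR's quasi-likelihood test on the recovered reads called 0 members with 2 at an unadjusted p under 0.05, and DESeq2 called 0 with 5. For dec2WT against the driver control, limma called 0 of 90 members and 2.61% of all genes, with 1 member at an unadjusted p under 0.05 (11.3% of all genes); edgeR and DESeq2 called 0, also with 1 at that level. For dec2P384R against dec2WT, limma called 0 of 90 and 0.783% of all genes, with 1 member at an unadjusted p under 0.05 (8.07% of all genes). EdgeR and DESeq2 called 0 there, with 0 and 1 members at that level.

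On Nanopore, edgeR's quasi-likelihood test called 0 of 91 members for dec2P384R against the driver control, where it called 0.474% of all genes. It called 0 for dec2WT against the driver control (0.799% of all genes) and 0 for dec2P384R against dec2WT (0.132%). Unadjusted p-values under 0.05 went to 3, 0 and 0 members, against 11.0, 10.1 and 7.19% of all genes, and DESeq2 called 0 members with 4, 0 and 0 at that level. In the authors' deposited table of Nanopore comparisons no member had an adjusted p under 0.05 either, the lowest being 0.427 for dec2P384R against the driver control. No member stood in the authors' deposited tables of Illumina comparisons, which list genes changed by at least 2-fold.

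For most members the confidence interval stayed within 1.5-fold. On Illumina the 95% confidence interval of the fold change stayed within 1.5-fold either way for 81 of 90 members for dec2P384R against the driver control, for 88 for dec2WT against the driver control and for 84 for dec2P384R against dec2WT. Within 2-fold it stayed for 89, 90 and 89 members. On Nanopore the interval stayed within 1.5-fold for 57, 78 and 77 of 91 members, and within 2-fold for all 91 in each comparison. These intervals cover each gene alone, without adjustment over genes. They and the tests use 1 spread per gene for all 3 genotypes, so the median half-width on Illumina was 0.33 in each comparison. On Illumina the main genes varied more within dec2P384R (median SD of log2 level 0.26) than in the driver control (0.08) and dec2WT (0.06). The Illumina intervals may thus be too narrow for dec2P384R and too wide for dec2WT against the driver control.

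The members' median log2 fold change was -0.03 for dec2P384R against the driver control, -0.05 for dec2WT against the driver control and 0.01 for dec2P384R against dec2WT on Illumina, where the median over all genes was 0.00 in each. On Nanopore the medians were -0.10, -0.07 and -0.05, beside 0.00, 0.00 and -0.01 over all genes. Negative values were found for 55, 77 and 38 of 90 members on Illumina and for 61, 66 and 61 of 91 on Nanopore. Of all genes 49.2, 49.7 and 50.4% were negative on Illumina and 50.2, 49.8 and 50.9% on Nanopore. Members moved together within libraries, so these counts are not of independent observations. Main genes of the large and the small subunit lay close together, at -0.05 and -0.04 for dec2P384R against the driver control on Illumina and at -0.09 and -0.13 on Nanopore. The comparisons with the driver control share its libraries.

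**Figure D3:**
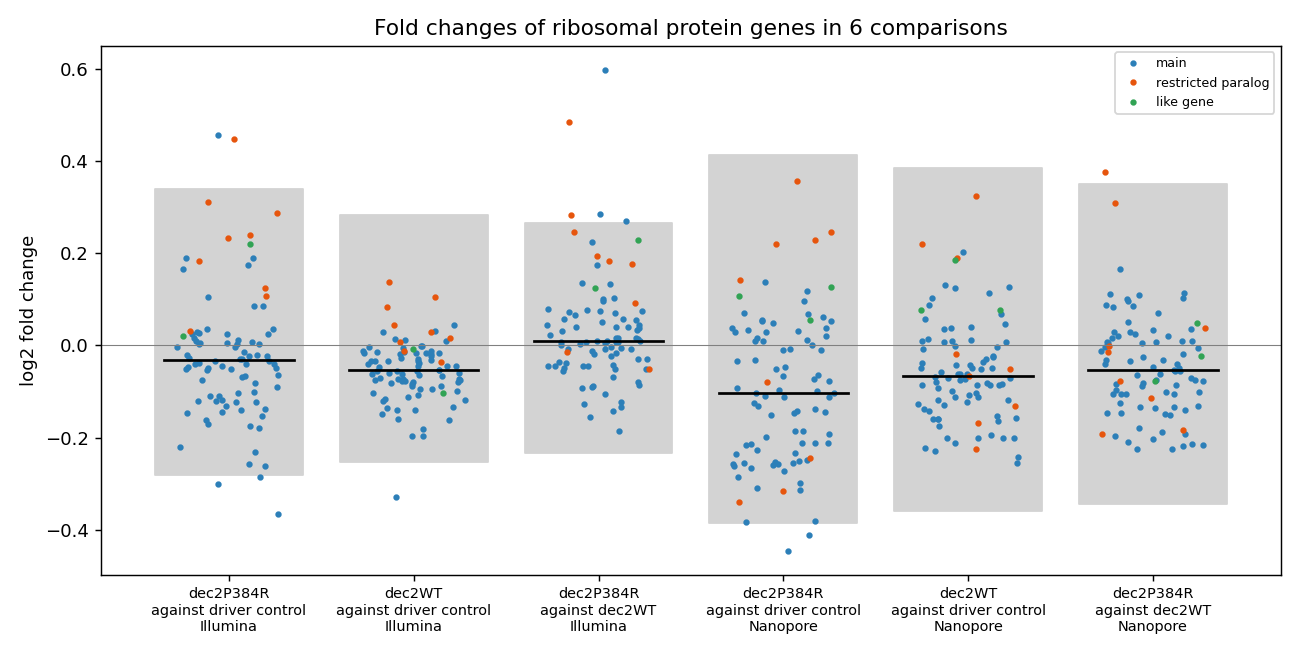
Log2 fold change of each tested member in 6 comparisons, coloured by class, with the members' median as a black line and the 10th to 90th percentile of all genes as a grey band. Member medians lie between -0.10 and 0.01, and nearly all members stay inside the band of all genes.

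RpL22, an RNA-binding protein of the large subunit encoded on X at 762560 to 765130, minus strand, had the lowest fold change for dec2P384R against the driver control on Illumina. It measured 697, 613 and 548 FPKM in the driver control, 545, 519 and 568 FPKM in dec2WT, and 547, 461 and 434 FPKM in dec2P384R. All dec2P384R values lay below the lowest control, though barely in replicate 1, and dec2WT overlapped both. The log2 fold change was -0.37 ± 0.14 (SE) with limma's adjusted p = 0.238, the lowest of any member in that comparison. On Nanopore RpL22 stood at 974, 1106 and 877 CPM in the driver control and at 871, 1136 and 1154 CPM in dec2P384R, which overlap. For dec2P384R against dec2WT it was among the lowest on Illumina, at -0.19 ± 0.14, and among the highest on Nanopore, at 0.17 ± 0.19. RpL22 shares 34.3% of its exon bases with lncRNA:CR42491 on the same strand, and RpL23A shares 31.9% with Uhg7. How the Illumina counting treated shared exons was not stated.

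RpL23A, which sits at the exit of the tunnel, measured 1934, 1761 and 1737 FPKM in the driver control, 1633, 1492 and 1616 FPKM in dec2WT, and 1537, 1604 and 1285 FPKM in dec2P384R. The driver control lay above both other genotypes. The log2 fold changes were -0.30 ± 0.14 for dec2P384R and -0.20 ± 0.14 for dec2WT against the driver control, with adjusted p = 0.369 and 0.738 (limma). On Nanopore its control libraries, at 1571, 1824 and 1517 CPM, lay above the dec2P384R libraries at 1290, 1362 and 1445 CPM and overlapped dec2WT at 1311, 1635 and 1243 CPM. RpL17, another protein near the tunnel exit, had the lowest fold change for dec2WT against the driver control on Illumina, at 1102, 1038 and 986 FPKM against 917, 775 and 801 FPKM. Its log2 fold change of -0.33 ± 0.14 had limma's adjusted p = 0.366. The stalk protein RpLP2 came next to these in both comparisons with the driver control on Illumina, at -0.28 ± 0.17 and -0.20 ± 0.17, with overlapping groups.

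At the other end, RpL39, a short protein lining the tunnel, measured 752, 899 and 934 FPKM in the driver control, 1105, 901 and 473 FPKM in dec2WT, and 1132, 1507 and 957 FPKM in dec2P384R. The dec2P384R libraries lay above the controls, while dec2WT held both a high and the lowest value. Its log2 fold change for dec2P384R was 0.46 ± 0.28 against the driver control and 0.60 ± 0.28 against dec2WT, with adjusted p = 0.523 and 0.640 (limma). On Nanopore the order was different: 1285, 1744 and 1349 CPM in the driver control, 1123, 1534 and 1014 CPM in dec2WT, and 916, 1283 and 1487 CPM in dec2P384R, all overlapping. RpL41 likewise had a positive log2 fold change for dec2P384R against dec2WT on Illumina (0.28 ± 0.22) and a negative one on Nanopore (-0.22 ± 0.19).

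RpS28a, a second copy of the small-subunit protein RpS28 on 3R at 30022345 to 30022648, minus strand, was among the 3 highest members for dec2P384R in both of its comparisons on both platforms. It measured 6.12, 6.24 and 5.30 FPKM in the driver control, 5.80, 7.65 and 4.16 FPKM in dec2WT, and 8.54, 8.90 and 7.22 FPKM in dec2P384R. On Nanopore the values were 8.13, 7.38 and 5.37 CPM, then 5.80, 7.17 and 7.84 CPM, then 9.34, 8.94 and 8.56 CPM. The dec2P384R libraries lay above the controls on both platforms, and above dec2WT on Nanopore. Against the driver control the log2 fold change was 0.45 ± 0.18 on Illumina (limma, adjusted p = 0.291) and 0.36 ± 0.24 on Nanopore (edgeR, adjusted p = 0.619). Against dec2WT it was 0.48 ± 0.18 (adjusted p = 0.453, limma) and 0.38 ± 0.24 (adjusted p = 0.818, edgeR). RpS28a had only 397 Illumina reads and 229 Nanopore counts over 9 libraries each, and its family holds the far more abundant RpS28b at 899 FPKM.

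The other second copies of restricted expression also had mostly positive values for dec2P384R on Illumina. The median log2 fold change of the 9 genes was 0.23 against the driver control and 0.18 against dec2WT on Illumina, and 0.14 and -0.01 on Nanopore, with none called in any of the 4. RpS19b measured 28.7, 19.8 and 24.2 FPKM in the driver control and 29.3, 32.5 and 27.9 FPKM in dec2P384R, which overlap, with a log2 fold change of 0.31 ± 0.13 and limma's adjusted p = 0.329. Summed over the 9 genes, the level was 208, 168 and 180 FPKM in the driver control, 198, 186 and 187 FPKM in dec2WT, and 213, 224 and 190 FPKM in dec2P384R, so the genotypes overlapped. Testis markers summed to 5878, 4119 and 4765 FPKM in the driver control and to 6023, 4671 and 5080 FPKM in dec2P384R. Among the controls these markers and the second copies were both highest in replicate 1 and both lowest in replicate 2, whereas in dec2P384R the second copies were highest in replicate 2, where the markers were lowest. The part of testis RNA was not tested.

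On Nanopore the lowest members for dec2P384R against the driver control were main genes. RpL32, a large-subunit protein whose mRNA is widely used as a reference in fly expression assays, measured 1447, 1812 and 1445 CPM in the driver control, 1390, 1481 and 1106 CPM in dec2WT, and 1080, 948 and 1427 CPM in dec2P384R. All dec2P384R values lay below the controls, replicate 3 only narrowly. The log2 fold change was -0.45 ± 0.19 with edgeR's adjusted p = 0.430. On Illumina RpL32 stood at 1391, 1237 and 1191 FPKM in the driver control and at 1096, 1447 and 1009 FPKM in dec2P384R, which overlap. RpS16 and RpL21 followed on Nanopore at -0.41 ± 0.19 and -0.38 ± 0.15, with adjusted p = 0.448 and 0.385 (edgeR).

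Groups without overlap were no more frequent among members than among all genes. For dec2P384R against the driver control on Illumina 3 of 90 members were higher and 5 lower in every library, against 8.16 and 7.83% of all genes. For dec2WT against the driver control 1 was higher and 9 lower, against 9.1 and 10.9%, the 9 including RpS6, the target of S6 kinase, RpS27A, which is made fused to ubiquitin, and RpLP0, the base of the stalk. For dec2P384R against dec2WT 2 were higher (RpS19b and RpL22-like) and 0 lower, against 7.12 and 6.16%. On Nanopore the counts were 1 higher and 5 lower, then 1 and 1, then 1 and 1, where all genes gave 8.24 and 8.71%, 7.45 and 7.98%, and 5.89 and 5.49%.

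Single libraries departed further from the rest than the genotype medians did, and in them the members moved together. For each of the 79 main genes the log2 level in a library was set against the gene's mean over the 9 libraries. In dec2P384R replicate 2 on Illumina the median of these differences was 0.28, and 65 of 79 genes had their highest value of the 9 libraries there, whereas 20.4% of all genes did. In dec2P384R replicate 3 the median was -0.22, and 71 of 79 had their lowest value there, against 11.1% of all genes. The other 7 Illumina libraries had medians of -0.08 to 0.12. The standard deviation of log2 level within dec2P384R had a median of 0.26 over the main genes, against 0.08 in the driver control and 0.06 in dec2WT. Over all genes the same medians were 0.20, 0.16 and 0.10.

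**Figure D4:**
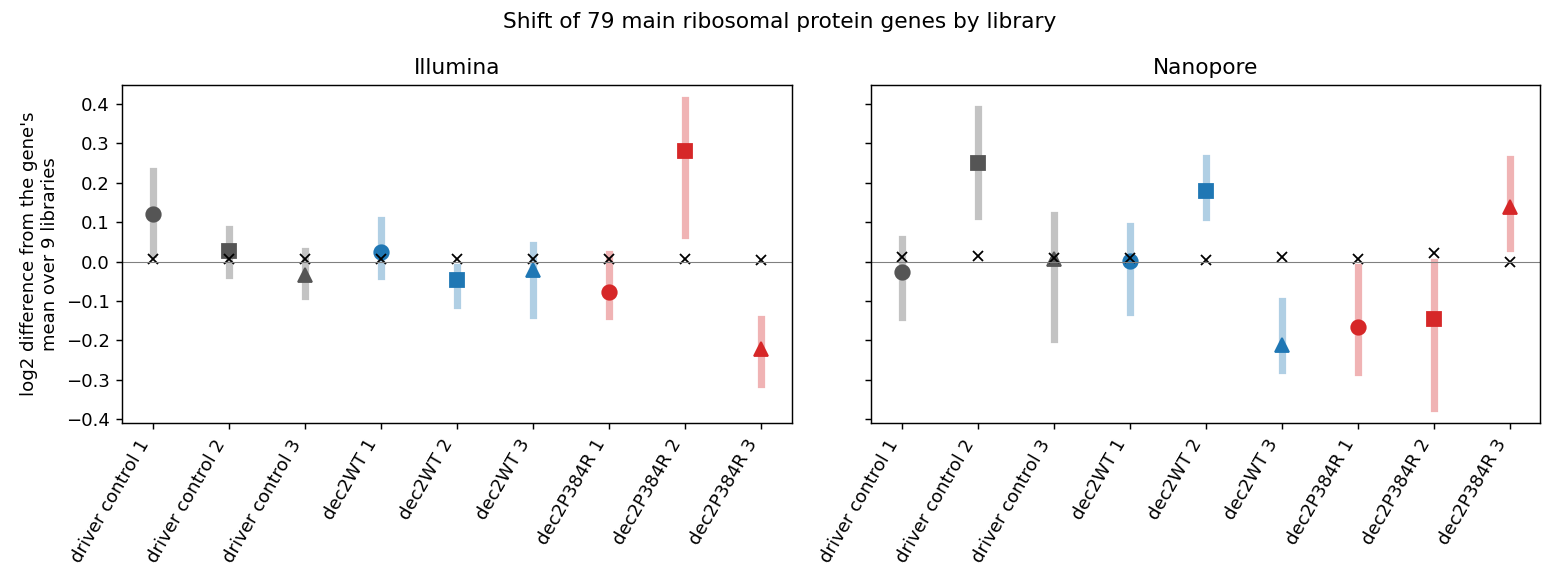
Median log2 difference of the 79 main genes from each gene's own mean over 9 libraries, by library and platform, with a bar from the 10th to the 90th percentile of the genes and a cross at the median of all genes. On Illumina dec2P384R replicate 2 stands at 0.28 and replicate 3 at -0.22, and on Nanopore driver control replicate 2 stands at 0.25 and dec2WT replicate 3 at -0.21.

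Some other measures differed between these libraries in the same direction, and others did not. In dec2P384R replicates 2 and 3 on Illumina the 72 tested mitochondrial ribosomal protein genes had medians of 0.22 and -0.17. The 9 genes of translation elongation had 0.10 and -0.09, and the 27 of initiation had 0.08 and -0.11. By contrast, the 48 genes of ribosome biogenesis had -0.01 and -0.15. The mitochondrial rRNA mt:lrRNA took 6.45% of reads in replicate 2, against 4.37 to 5.31% in the other libraries. In replicates 2 and 3 neuron markers summed to 5170 and 3874 FPKM, muscle markers to 2638 and 1789 FPKM, and gut markers to 13311 and 10311 FPKM. Accessory gland markers summed to 4683 and 3049 FPKM, while testis markers were lower in replicate 2, at 4671 against 5080 FPKM. The part of any of these in the shift was not tested.

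On Nanopore the main genes also shifted together, but in other libraries. Driver control replicate 2 had a median of 0.25, with 47 of 79 genes at their highest there (11.3% of all genes), and dec2WT replicate 2 one of 0.18. Medians of dec2WT replicate 3 and of dec2P384R replicates 1, 2 and 3 were -0.21, -0.17, -0.14 and 0.14. Whether libraries of the same number on both platforms share their RNA was not stated, so the platforms are not compared library by library. Mitochondrial ribosomal protein genes had a median of 0.00 in driver control replicate 2 and of -0.02 in dec2WT replicate 3.

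The sign of several medians turned on single libraries. Without dec2P384R replicate 2 the Illumina median for dec2P384R against the driver control became -0.18, with 77 of 90 members negative, 18 at an unadjusted p under 0.05 (15.3% of all genes) and 0 called, the lowest adjusted p being 0.0873 (limma). Without replicate 1 of either genotype it was 0.01, and without dec2P384R replicate 3 it was 0.07, with 21 negative, 5 at an unadjusted p under 0.05 (17.5% of all genes) and 0 called by limma. For dec2P384R against dec2WT leaving out dec2P384R replicate 2 or 3 gave -0.13 and 0.11 on Illumina, and leaving out dec2WT replicate 2 gave 0.00 on Illumina and 0.03 on Nanopore. On Nanopore the median for dec2P384R against the driver control was -0.23 without dec2P384R replicate 3, with 10 members at an unadjusted p under 0.05 (13.1% of all genes) and 0 called by edgeR, and -0.02 without driver control replicate 2. For dec2WT against the driver control it was 0.02 without driver control replicate 2, 0.03 without dec2WT replicate 3 and -0.16 without dec2WT replicate 2.

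As a share of the library, the members took 8.69, 7.88 and 7.70% of Illumina reads in the controls, beside 8.35, 7.68 and 7.73% in dec2WT and 8.16, 8.99 and 7.03% in dec2P384R. The means were 8.09 ± 0.53, 7.92 ± 0.37 and 8.06 ± 0.98% (SD, n = 3 each), and the genotypes overlapped, with dec2P384R holding both the highest and the lowest library. On Nanopore the members took 9.66, 10.5 and 9.63% of counts, then 9.79, 11.2 and 8.76%, then 9.29, 9.08 and 10.6%. Those means were 9.94 ± 0.50, 9.92 ± 1.22 and 9.65 ± 0.82% (SD, n = 3 each).

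Both platforms were compared gene by gene in the driver control, as Nanopore CPM over Illumina RPM, each relative to the library total alone (reads, for RPM). Of the 79 main genes 62 were higher on Nanopore, with a median log2 ratio of 0.37, whereas the 11295 genes measured on both had a median of -0.33. The ratio was lower for longer genes, with a Spearman correlation of -0.58 over the 79 genes. RPM, unlike FPKM, is not divided by gene length, so at equal FPKM a longer gene has a higher RPM. The relation with length may thus come from the units, and their part was not tested. The 20 main genes of up to 650 nt had a median of 0.49 and the 33 over 1000 nt one of 0.01. RpL39, with 288 nt the shortest member, was 5.71-fold higher on Nanopore (1399 ± 154 CPM against 245 ± 24.6 RPM, SD, n = 3), followed by RpS28-like at 4.29-fold and RpS28a at 3.78-fold. The largest excess on Illumina was found for long genes: RpL4 (1.97-fold), the stalk base RpLP0 (1.95-fold), RpL3 (1.60-fold), RpL5 (1.35-fold) and RpL8 (1.32-fold).

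**Figure D5:**
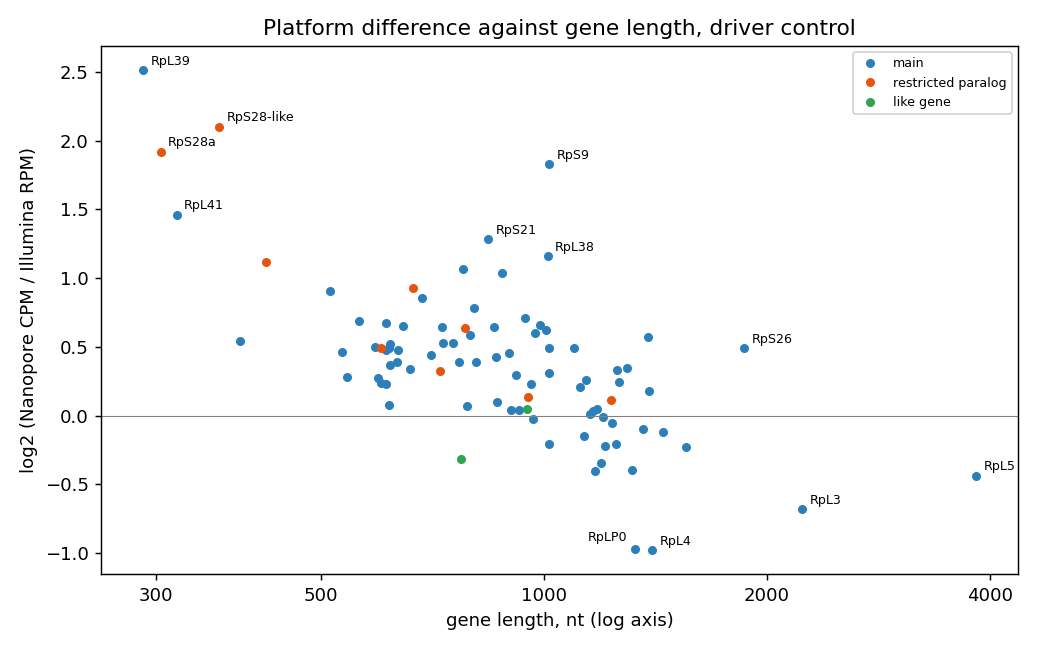
Log2 ratio of Nanopore CPM to Illumina RPM (counts and reads relative to library totals) in the driver control (mean of 3 libraries each) against gene length in nt on a log axis, with 1 point per member and colour for class. Neither measure is divided by gene length. Short genes such as RpL39 (5.71-fold) lie highest, RpL4 and RpLP0 lowest, and RpS9 lies apart at 3.55-fold.

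RpS9 stood above the relation with length, and RpL7-like had no ratio, being at 0 on Illumina. Both share exons with another gene. RpL38 (1013 nt, 2.23-fold) and RpS21 (842 nt, 2.43-fold) also stood high for their length and share no exon base. The part of shared exons was not tested. RpS9, a small-subunit protein involved in reading accuracy, lies on 3L at 9509793 to 9511531, minus strand, and 50.3% of its 1018 exon bases lie under the antisense RNA asRNA:CR45874 on the opposite strand. It measured 361 ± 25.9 FPKM (SD, n = 9), low among main genes, but was 3.55-fold higher on Nanopore, at 1305 ± 43.8 CPM against 368 ± 1.96 RPM in the driver control. RpL7-like, on 2L at 12056326 to 12058251, plus strand, shares 98.8% of its exon bases with CG34164 on the same strand. Both genes were listed at 0 in all 9 Illumina libraries, yet RpL7-like held 1079 and CG34164 481 Nanopore counts in total. How the Illumina counting treated strand and shared exons was not stated. Among the 91 members, 60 shared no exon base with another gene, and only RpS9 and RpL7-like shared 50% or more.

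Many members host small nucleolar RNA genes, which guide the chemical marking of rRNA and are commonly cut from introns. In the annotation 27 of 91 members (29.7%), all main genes, held a snoRNA gene within their bounds, against 95 of 13931 protein-coding genes (0.682%). Together these members held 71 of the 273 snoRNA genes in the table (26%). RpL3 held 4 of them.

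The rest of the translation machinery, in lists chosen with earlier results of these data known, gave no call in any of the 6 comparisons. This covered 27 genes of translation initiation, 9 of elongation, 48 of ribosome biogenesis, 7 of RNA polymerase I, which transcribes rRNA, 72 of the mitochondrial ribosome and 31 regulators. For dec2P384R against the driver control on Illumina the median log2 fold changes were -0.03, -0.16, -0.05, -0.01, -0.09 and -0.10 in that order, beside 0.00 over all genes. On Nanopore they were 0.02, 0.02, -0.01, 0.01, 0.09 and -0.21, also beside 0.00 over all genes. Over the comparisons 0.783 to 2.8% of all genes were called on Illumina and 0.132 to 0.799% on Nanopore. Lists of this size would thus hold few calls in any case.

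Among the regulators, Tor encodes the kinase that controls translation of ribosomal protein mRNAs and measured 4.49 ± 1.45 FPKM in dec2P384R and 5.38 ± 0.54 FPKM in the driver control (SD, n = 3), with limma's adjusted p = 0.578. S6k, the kinase of RpS6, stood at 14.1 ± 1.01 and 15.4 ± 1.40 FPKM in the same groups, with adjusted p = 0.681 (limma). Thor, the repressor of cap-dependent initiation known in mammals as 4E-BP, stood at 441 ± 300 FPKM in dec2P384R against 337 ± 87.5 FPKM, with adjusted p = 0.880 (limma), and at 311 ± 109 against 452 ± 68.2 CPM on Nanopore, with adjusted p = 0.513 (edgeR). The direction for Thor thus differed between platforms. The growth regulator Myc had log2 fold changes of -0.02 ± 0.22 on Illumina and 0.22 ± 0.24 on Nanopore. The mRNA-binding protein larp had -0.38 ± 0.22 and -0.21 ± 0.18, and Xrp1, which acts in Minute cells, -0.23 ± 0.14 and -0.13 ± 0.16. None of the 6 passed in any comparison on either platform.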

How the data were processed

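Per the submitters' processing notes, the tools were minimap2 and Salmon, HISAT2 and featureCounts 1.5.0-p3, and DESeq2; their roles, the build and the strand setting are not given in the sources used here. Coordinates are as deposited, and 99.3% of 17626 shared identifiers had the same coordinates in the Ensembl annotation used. The Illumina table deposited by the authors holds FPKM values. Its values came out as whole reads for 100% of entries (relative tolerance 1e-08) through the read counts in the authors' deposited comparison tables. Nanopore values are estimated counts deposited by the authors, 55.1% of them not whole, and were rounded here. Log2 fold changes and p-values in the authors' deposited tables were read only where named. Of the deposited columns of values per library 36 were not used.

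Illumina was tested with limma 3.58.1 on log2(FPKM + 0.5), with its mean-variance trend, for genes with at least 0.5 FPKM in 3 libraries (13418); such fold changes understate the change of low genes. Nanopore was tested with edgeR 4.0.16 (quasi-likelihood, TMM) after its expression filter (11393 genes). All 9 libraries of a platform entered 1 fit in R 4.3.3; p-values were Benjamini-Hochberg adjusted over all genes tested, with a threshold of 0.05. DESeq2 1.42.0 and edgeR on the recovered reads were alternatives. The fits were tested on simulated data. Intervals cover 95%.

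The members and lists were chosen with earlier results of these data known. Genes were named when they passed the test or were among the 3 highest or lowest fold changes of a comparison. Also named were the 5 highest or lowest levels on a platform, paralog pairs, the 5 largest platform differences each way and 6 regulators. RpL22-like shares, RpL23A, RpS9 and neighbours, RpL38 and RpS21 are described further for their values. Same-numbered libraries deviated together with correlations of 0.26, 0.12 and 0.25 for dec2P384R and the driver control on Illumina, over 0.1 in every pair, and not so in the other 5 comparisons. For dec2P384R and dec2WT on Illumina the correlations were 0.24, 0.04 and 0.21. The labels give replicate numbers only as names and state no pairing. Values of 1 gene family are counted in the totals but not reported here.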

Additional observations from a re-analysis of the deposited data

How the results depend on the processing

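Under every alternative run 0 members were called. The medians and library share differences moved by less than the spread between libraries. For shares this was bound to hold when 1 of 3 libraries was left out, since that cannot shift a group mean so far. It is therefore no sign of stability there. Of 93 recomputed medians 9 changed sign, as did 14 of 54 recomputed share differences. None of these was a called value. On Illumina the alternatives were a pseudocount of 0.1, no filter, FPKM rescaled to total reads, and edgeR and DESeq2 on the recovered reads. On Nanopore they were median-of-ratios factors, library totals alone, no filter and DESeq2. Both platforms also had a fit of the 6 libraries compared and each library left out. Rescaling FPKM to total reads turned the median for dec2P384R against the driver control to 0.02, beside 0.05 over all genes, and library totals alone put it at -0.01 on Nanopore, beside 0.08. Leaving out 1 library at a time gave medians of -0.18 to 0.07 on Illumina and -0.23 to -0.02 on Nanopore for that comparison, -0.09 to -0.01 and -0.16 to 0.03 for dec2WT against the driver control, and -0.13 to 0.11 and -0.17 to 0.03 for dec2P384R against dec2WT. The Nanopore share without mitochondrial rRNA equals the full share, since those genes are not in its table of 13969 genes.

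With the replicate number as a block, 0 members were called in all 6 comparisons (limma on Illumina, edgeR on Nanopore). For dec2P384R against the driver control on Illumina, where same-numbered libraries weakly deviated together, 5 of 90 members had an unadjusted p under 0.05 (17.0% of all genes). The lowest adjusted p was 0.102 (limma), and the block called 504 genes of 13418 against 376 without it. The block changed no call on a member.

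With 3 libraries a group, changes under about 1.5-fold, and some above it, were beyond the reach of many genes, most of all on Nanopore. RpL39, at a log2 fold change of 0.60 for dec2P384R against dec2WT on Illumina, was not called. Low members such as RpS28a rest on few reads.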

Other observations

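RpS3A, left out because it lies on chromosome 4, measured 949, 939 and 889 FPKM in the driver control, 924, 932 and 962 FPKM in dec2WT, and 867, 1187 and 886 FPKM in dec2P384R, with its highest value in the same library as most main genes. Its mean of 948 ± 95 FPKM (SD, n = 9) lay near the median of the main genes. The RpSA gene sta measured 1224, 1172 and 1133 FPKM in the driver control, 1149, 1020 and 982 FPKM in dec2WT, and 1046, 1192 and 858 FPKM in dec2P384R, and its lowest value was in dec2P384R replicate 3, where 71 of 79 main genes were lowest.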
